A study of Rattus norvegicus with 30 samples.

Results

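Glutathione transferases are the enzymes that join glutathione, a small thiol peptide, to reactive electrophiles such as lipid aldehydes, or that use it to reduce lipid peroxides. They fall into unrelated protein families. The soluble enzymes carry a class letter (alpha, mu, pi, theta, omega), the kappa enzyme resides in mitochondria and peroxisomes, and the microsomal enzymes belong to the MAPEG family of membrane proteins. Prostaglandin and leukotriene synthesis uses the same folds: hematopoietic PGD synthase (HPGDS), which converts PGH2 into PGD2, is a sigma-class glutathione transferase, while the PGE synthase PTGES, the LTC4 synthase LTC4S and the 5-lipoxygenase activating protein ALOX5AP are MAPEG proteins. In injured tissue this enzyme class is known for clearing the lipid oxidation products that accompany inflammation.

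The members were 10 genes chosen by name: Gstm1, Gstm2, Gstp1, Gstt1, Gsta4, Gsto1, Gstk1, Mgst1, Mgst2 and Mgst3. Of these, 9 were among the 13124 genes of the count table, and Gstm2 was not analysed here. All 9 passed the filter on low counts, which kept the 12558 genes whose group mean reached 3 CPM (counts scaled to the total of each library) in 1 group or more. Their identifiers in the rn6 annotation were ENSRNOG00000029726 on chromosome 2 for Gstm1, ENSRNOG00000018237 on chromosome 1 for Gstp1, ENSRNOG00000049771 on chromosome 20 for Gstt1, ENSRNOG00000030449 on chromosome 8 for Gsta4, ENSRNOG00000028746 on chromosome 1 for Gsto1, ENSRNOG00000016484 on chromosome 4 for Gstk1, ENSRNOG00000007743 on chromosome 4 for Mgst1, ENSRNOG00000061857 on chromosome 2 for Mgst2 and ENSRNOG00000004245 on chromosome 13 for Mgst3. Genes of the mu and theta classes have relatives of similar sequence, so the counts of Gstm1 and Gstt1 could have been split with their neighbours. They are uncertain in that respect, which was not examined.

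RNA sequencing was performed on the plantaris tendons of 30 male Sprague Dawley rats of about 3 months, with 1 tendon per rat. Control tendons (n = 3) had neither surgery nor compound. The other 27 tendons came from rats that had a full-thickness plantaris tenotomy on both limbs followed by immediate suture repair, and that received GSK2894631A, an inhibitor of HPGDS, by oral gavage at 0, 2 or 6 mg/kg until 7 days (7D; n = 5, 4 and 3) or 21 days (21D; n = 5 per dose). The 0 mg/kg groups received vehicle, so the control rats differed from every repaired group in both surgery and gavage, which cannot be told apart. Total counts per tendon ranged from 12405741 to 49909374, and 3 counts corresponded to 0.0561 to 0.245 CPM. Levels are given as CPM after scaling by trimmed mean of M values (TMM), and differences as log2 fold changes ± SE with the adjusted p of the edgeR quasi-likelihood fit (Benjamini-Hochberg, over all 12558 genes). A gene was counted as changed at an adjusted p under 0.05. Genes were not compared with each other in level, since transcript lengths were not used.

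The control tendons stood apart in tissue makeup. A list of skeletal muscle markers, of which 27 were in the table, held 20.1, 20.0 and 28.7% of the counts in control replicates 2, 3 and 4, with Acta1, skeletal muscle actin, as its most abundant gene, and no marker in the table was at 0 in the control tendons. The share was 0.226 to 1.36% at 7D 0 mg/kg, 0.0206 to 0.0243% at 7D 2 mg/kg and 0.0219 to 0.0302% at 7D 6 mg/kg, and it was 0.0874 to 8.30%, 1.33 to 3.42% and 0.369 to 10.2% at 21D 0, 2 and 6 mg/kg. Control and repaired tendons did not overlap in this share. The tenocyte and fibroblast markers, led by Col1a1, held 0.656 to 3.10% of counts in control tendons and 3.16 to 6.03% at 7D 0 mg/kg. In these groups, in the same order, Col1a1 averaged 18442 and 40536 CPM, and Scx (27.2 and 47.4 CPM), Thbs4 (619 and 785 CPM) and Pdgfra (154 and 271 CPM) also had the higher mean in the latter, while Tnmd (229.8 and 85.3 CPM), Mkx (5.69 and 0.330 CPM), Fmod (1617 and 520.4 CPM), Comp (421 and 379.9 CPM) and Dcn (4099 and 3691 CPM) had the lower. The macrophage markers, led by Lyz2, held 0.0286 to 0.154% in control and 0.254 to 0.598% in 7D 0 mg/kg tendons. Adipocyte markers, all 10 of them in the table and led by Cfd, had median shares of 0.0535% in control tendons, 0.190, 0.275 and 0.196% at 7D 0, 2 and 6 mg/kg, and 0.104, 0.0597 and 0.0683% at 21D. Not all members of this list moved alike. In TMM-scaled CPM, 9 of the 10 had a higher mean at 7D 0 mg/kg than in control, Plin4 being lower (20.5 against 160.3 CPM), and 8 of 10 had a lower mean than control at 21D 2 mg/kg and 9 of 10 at 21D 6 mg/kg, among them Adipoq (31.6 and 54.3 against 63.6 CPM), with Cfd above control in both. The scale matters here, since shares are of unscaled counts and a lower TMM factor raises the scaled CPM. The factors were 0.599 to 0.788 in control, 1.003 to 1.05 at 21D 2 mg/kg and 0.950 to 1.07 at 21D 6 mg/kg. The adipocyte share used as a covariate below is unscaled, so between control and repaired tendons it carries this difference as well. Other lists also differed between control and 7D 0 mg/kg tendons in their median share, at 0.00105 and 0.0101% for neutrophil markers (6 in the table, led by S100a9), 0.00211 and 0.0182% for mast cell markers (9, led by Mcpt1l1), 0.0429 and 0.0942% for endothelial markers (7, led by Tie1) and 0.294 and 1.37% for erythroid markers (4, led by Hbb). Their part in the results was not tested. Control replicate 4 had the highest muscle share, the lowest TMM factor (0.599) and the lowest macrophage share of the 3 control tendons, and results are given below without it where that changed a call. In bulk tissue, fewer cells of a type and less RNA per cell cannot be told apart.

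At 7D 0 mg/kg, 3 of the 9 members exceeded control and 3 fell below it, against 35.8% of all genes tested higher and 35.6% lower. At 7D 2 mg/kg 4 were higher and 2 lower, against 35.8 and 34% of all genes, and at 7D 6 mg/kg 3 were higher and 2 lower, against 34.1 and 33.8%. At 21 days, 3 were higher and 3 lower with 0 mg/kg (32.2 and 33.7% of all genes), 2 were higher and 2 lower with 2 mg/kg (33.8 and 35.3%) and 2 were higher and 2 lower with 6 mg/kg (30.8 and 33.3%). Scaling by library size alone gave 7474 genes with a rise and 2418 with a fall at 7D 0 mg/kg, where TMM gave 4493 and 4473, and put the median of all genes at 0.51 to 0.64 in the 6 groups. The members' shares under TMM lie near the background, so the number of members that changed is not in itself a result about the class. The median log2 fold change of the members was 0.15, 0.48 and 0.36 at 7D 0, 2 and 6 mg/kg and 0.01, 0.00 and −0.04 at 21D, where the median of all genes tested was 0.05, 0.05, 0.04, 0.03, 0.01 and 0.01. All 6 comparisons share the same 3 control tendons. The members moved in different directions: Mgst2 and Gstt1 rose and Mgst3 and Gstk1 fell in all 6 groups, and Mgst1 rose in 4.

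**Figure D1:**
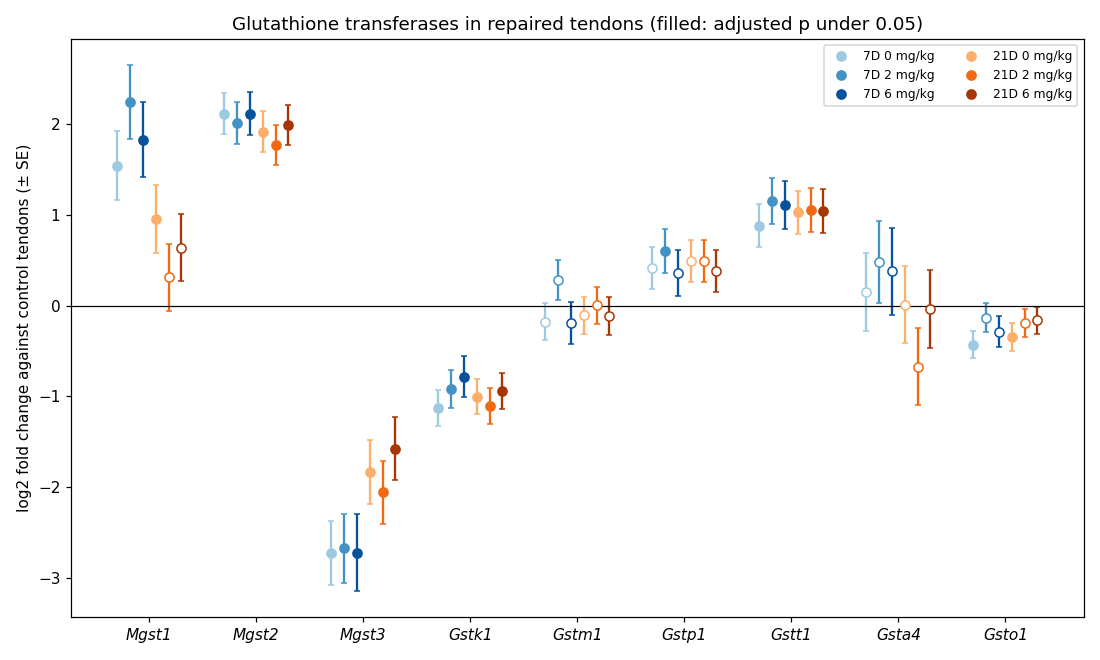
Log2 fold change against control tendons (y axis, ± SE) of the 9 glutathione transferases (x axis) in the 6 repaired groups; filled points had an adjusted p under 0.05 and open points did not. Mgst2 lies between 1.77 and 2.11 in all 6 groups and Mgst3 between −2.73 and −1.58.

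Promoter sequences of 7 of the 9 members were found in RefSeq (rat build GRCr8), each covering 250 bases before and 50 bases from the start site. They were searched on both strands for the core of the antioxidant response element, TGACNNNGC, to which NRF2 binds, and for the AP-1 site, TGANTCA. The 9 bases TGACTCAGC match both. The first motif occurred in 12.1% and the second in 7.33% of 33469 rat promoters of the same length. The windows with a match are shown, with the matched bases in capitals, for Gstp1 on chr1:210769656-210769955 (minus strand), Mgst1 on chr4:172760680-172760979 (plus strand) and Gsto1 on chr1:256662281-256662580 (plus strand).
Gstp1: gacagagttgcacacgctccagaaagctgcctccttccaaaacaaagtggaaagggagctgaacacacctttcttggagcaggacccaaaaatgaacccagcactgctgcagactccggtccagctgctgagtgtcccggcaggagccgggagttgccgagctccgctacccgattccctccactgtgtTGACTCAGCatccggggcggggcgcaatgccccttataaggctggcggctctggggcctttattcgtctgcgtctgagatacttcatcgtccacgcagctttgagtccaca
Mgst1: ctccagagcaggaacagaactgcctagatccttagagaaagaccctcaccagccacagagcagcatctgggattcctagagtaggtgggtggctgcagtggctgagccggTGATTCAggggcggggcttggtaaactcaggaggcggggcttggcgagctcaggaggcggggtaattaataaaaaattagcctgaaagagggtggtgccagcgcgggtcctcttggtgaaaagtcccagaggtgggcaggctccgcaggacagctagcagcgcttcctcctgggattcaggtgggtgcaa
Gsto1: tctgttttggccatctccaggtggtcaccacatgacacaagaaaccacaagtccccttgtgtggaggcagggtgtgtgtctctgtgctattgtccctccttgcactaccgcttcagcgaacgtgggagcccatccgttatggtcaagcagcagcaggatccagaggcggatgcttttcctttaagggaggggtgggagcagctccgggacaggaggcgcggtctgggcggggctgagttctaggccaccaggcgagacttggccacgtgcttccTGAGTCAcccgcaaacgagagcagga
In the Gstp1 window TGACTCAGC begins at position −61 from the start site, and it holds the AP-1 letters as well. The Mgst1 window has TGATTCA at −140 and the Gsto1 window TGAGTCA at +25. Neither set of letters was in the windows of Gstm1, Gsta4, Mgst3 and Gstk1. A match describes the sequence only, and the 3 genes with one differed in their response, as Mgst1 rose at 7 days in all 3 dose groups, Gstp1 in 1 of them and Gsto1 in none.

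Mgst2 encodes a microsomal glutathione transferase that also has LTC4 synthase and peroxidase activity. Its level was 5.95, 8.42 and 8.74 CPM in the control tendons. In the 7D 0 mg/kg tendons it was 27.2, 28.8, 34.9, 37.6 and 37.8 CPM. Every 7D 0 mg/kg tendon was thus above every control tendon, at a mean of 33.3 ± 4.95 CPM (SD, n = 5) against 7.70 ± 1.53 CPM (n = 3). The level was 29.9, 30.1, 31.9 and 31.9 CPM at 7D 2 mg/kg and 27.4, 28.9 and 43.6 CPM at 7D 6 mg/kg. It was 24.3, 27.8, 27.9, 31.8 and 33.3 CPM at 21D 0 mg/kg, 16.9, 23.1, 26.3, 32.1 and 32.5 CPM at 21D 2 mg/kg and 21.9, 26.1, 30.6, 32.9 and 41.1 CPM at 21D 6 mg/kg. No repaired tendon of any group overlapped with the controls, while the repaired groups overlapped with each other. The log2 fold change against control was 2.11 ± 0.22, 2.01 ± 0.23 and 2.11 ± 0.24 at 7D 0, 2 and 6 mg/kg, with adjusted p-values of 1.09e-08, 4.25e-08 and 5.30e-08. At 21D it was 1.92 ± 0.22, 1.77 ± 0.22 and 1.99 ± 0.22, with adjusted p-values of 9.71e-08, 1.73e-07 and 6.94e-08. Between 21 and 7 days Mgst2 differed by −0.20, −0.24 and −0.12 on the log2 scale at 0, 2 and 6 mg/kg, none of which passed the test (adjusted p = 0.525, 0.408 and 0.746). Mgst2 was called in all 6 groups under every other setting except 1, the muscle share in percent as a covariate, where the log2 fold changes were 1.56 to 1.90 and 7D 2, 7D 6 and 21D 2 mg/kg missed the threshold (adjusted p = 0.0545, 0.0523 and 0.0707). Control and repaired tendons did not overlap in the muscle share, so the rise of Mgst2 against control cannot be told apart from the lower share.

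Mgst1 encodes the abundant membrane-bound transferase of the endoplasmic reticulum and outer mitochondrial membrane. It was 17.4, 24.4 and 40.9 CPM in control tendons and 53.9, 79.3, 79.4, 86.7 and 102 CPM at 7D 0 mg/kg. At 7D 2 mg/kg the values were 64.7, 92.0, 174 and 192 CPM, and at 7D 6 mg/kg 80.1, 105 and 108 CPM. All 12 of the 7D tendons exceeded all 3 controls, and 2 tendons of the 2 mg/kg group (replicates 4 and 5) were higher than any other. These 2 also had the highest shares of hepatocyte markers of the 30 tendons, 0.00576 and 0.00826%, where 2 of the 6 markers listed were in the table, Serpina1, the more abundant, at a mean of 36.6 CPM in that group and 3.77 CPM in control, and Alb at 5.19 and 0.0935 CPM. The part of the hepatocyte markers in the level of Mgst1 was not tested. The same 2 tendons had the highest adipocyte shares of the 30 as well, 0.429 and 0.377%, a list taken up below. The log2 fold change was 1.54 ± 0.38 (adjusted p = 0.000915), 2.24 ± 0.41 (2.98e-05) and 1.83 ± 0.41 (0.000417) in the 3 dose groups. At 21 days the values were 29.0, 52.6, 53.5, 56.5 and 74.9 CPM with 0 mg/kg, 23.9, 26.5, 39.7, 39.9 and 41.2 CPM with 2 mg/kg and 17.4, 41.7, 44.9, 45.4 and 65.3 CPM with 6 mg/kg. Each of these groups overlapped with the controls. Only the 21D 0 mg/kg group passed the test against control (0.95 ± 0.37, adjusted p = 0.0279), and it did not without control replicate 2 (adjusted p = 0.182) or 4 (0.109) or 21D 0 mg/kg replicate 4 (0.0704). The 21D 2 mg/kg and 21D 6 mg/kg groups differed from control by 0.31 ± 0.36 (adjusted p = 0.457) and 0.64 ± 0.37 (0.133). The latter passed without control replicate 3 (1.06, adjusted p = 0.0342) or 21D 6 mg/kg replicate 2 (0.84, 0.0360).

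Mgst1 was lower at 21 than at 7 days with 2 mg/kg, by a log2 fold change of −1.93 ± 0.33 (adjusted p = 0.000489), and with 6 mg/kg, by −1.19 ± 0.35 (0.0253), and in both every 21D tendon was below every 7D tendon. With 0 mg/kg the difference was −0.59 ± 0.31 and did not pass the test (adjusted p = 0.253). The 6 mg/kg call was lost without 7D 6 mg/kg replicate 4 (adjusted p = 0.0904) or 5 (0.0853) or 21D 6 mg/kg replicate 2 (0.0660). Whether these differences between time points depend on dose was tested as an interaction, which had an unadjusted p of 0.0225 and an adjusted p of 0.511 for Mgst1. Levels of Mgst1 moved with the adipocyte marker list. Across the 12 tendons at 7D, Pearson's r between log2 CPM and the log2 share was 0.77 and Spearman's rho 0.64 (permutation p = 0.00380 and 0.0293, adjusted over 27 relations 0.0272 and 0.158), and r was 0.63 without the 2 tendons farthest from the median share. Across the 15 tendons at 21D, r was 0.64 and rho 0.75 (permutation p = 0.0113 and 0.00187, adjusted 0.0611 and 0.0127). These permutations did not keep the doses apart, and at 21D the share separated by dose. It was 0.0884 to 0.120% at 0 mg/kg, 0.0276 to 0.0717% at 2 mg/kg and 0.0520 to 0.0861% at 6 mg/kg. Mean Mgst1 in these groups was 53.3, 34.2 and 42.9 CPM, and a relation within a dose was not tested. With the adipocyte share in the fit, the log2 fold change at 7D 0 mg/kg was 0.50 (adjusted p = 0.236), and none of the 7D calls of Mgst1 held. The difference between time points at 2 mg/kg was then −0.49 (adjusted p = 0.672), and with both shares −0.53 (0.579), while the call at 6 mg/kg was lost under 5 of 12 other settings, at −0.14 (0.898) with the adipocyte share. With the log2 muscle share the folds against control hardly moved, but the calls at 7D 2 mg/kg (2.17, adjusted p = 0.0797), 7D 6 mg/kg (1.76, 0.146) and 21D 0 mg/kg (0.93, 0.0759) were lost, and with the share in percent all 4 calls were. A part of adipocytes in the change of Mgst1 was not tested beyond these values. Nor can its rise against control be told apart from the muscle share, in which control and repaired tendons did not overlap.

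**Figure D2:**
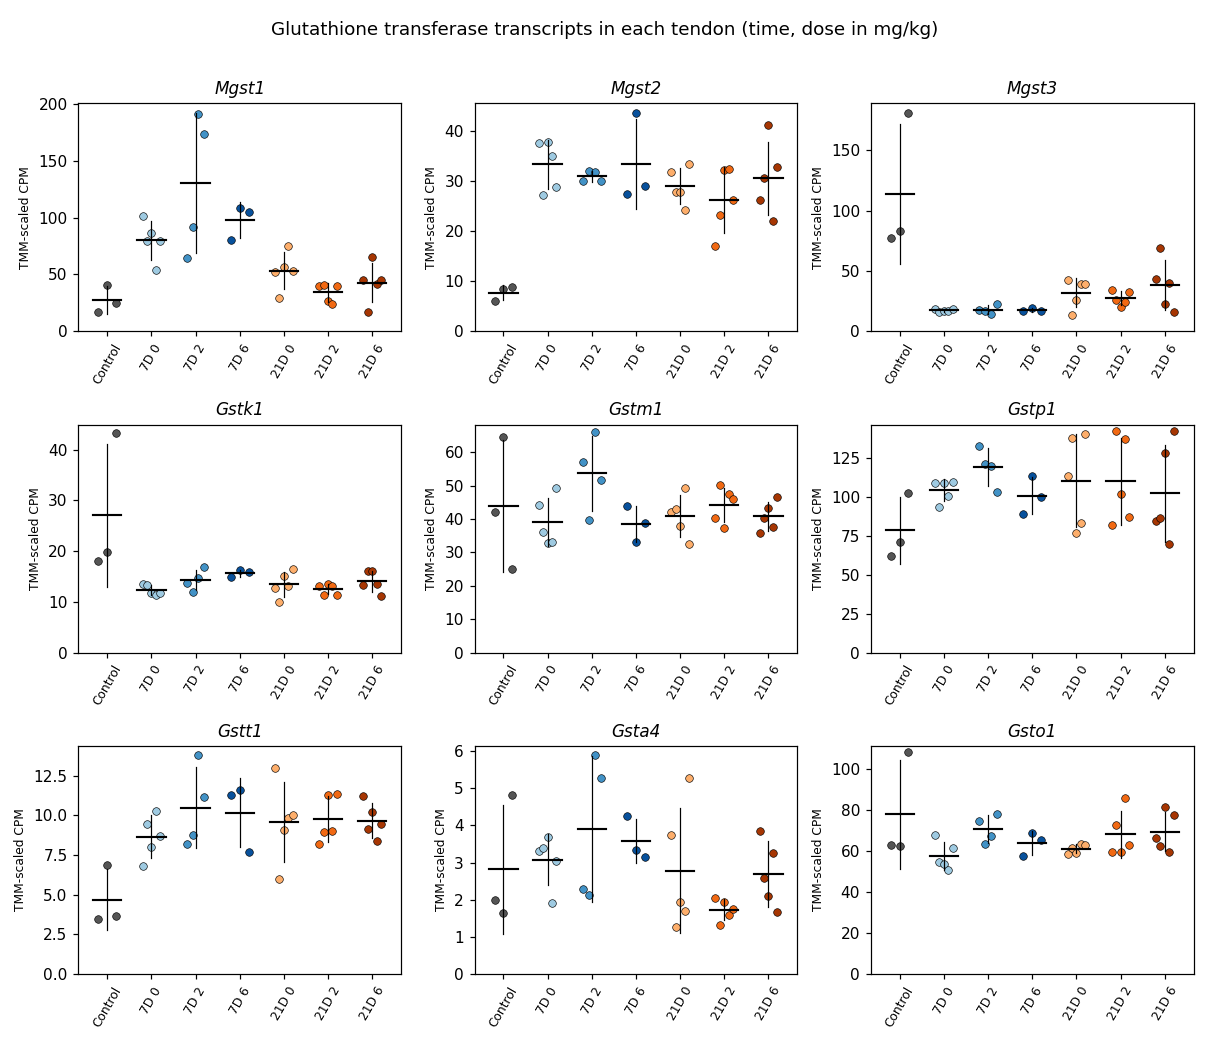
TMM-scaled CPM (y axis) of each of the 9 members in every tendon, by group (x axis, time and dose in mg/kg); each point is 1 tendon, horizontal bars are means and vertical bars ± SD. All 27 repaired tendons lie above the 3 control tendons for Mgst2 and below them for Mgst3 and Gstk1.

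Mgst3, the third microsomal transferase, which reduces lipid hydroperoxides with glutathione, went the other way. Control tendons held 77.7, 83.3 and 181 CPM, the last being replicate 4. In 7D tendons the level was 15.8, 16.6, 16.8, 18.2 and 18.5 CPM with 0 mg/kg, 14.3, 17.0, 17.6 and 22.6 CPM with 2 mg/kg and 16.3, 16.4 and 19.2 CPM with 6 mg/kg. These 12 tendons spanned a narrow range far below the controls. At 21 days it was 13.4, 25.8, 39.1, 39.5 and 42.1 CPM with 0 mg/kg, 20.1, 24.6, 25.6, 32.5 and 34.3 CPM with 2 mg/kg and 15.6, 22.9, 40.0, 43.1 and 69.0 CPM with 6 mg/kg. The 21D tendons were more spread than the 7D tendons, and they too lay below every control. The log2 fold change against control was −2.73 ± 0.35, −2.67 ± 0.38 and −2.72 ± 0.42 at 7D 0, 2 and 6 mg/kg (adjusted p = 2.43e-07, 1.19e-06 and 4.70e-06) and −1.83 ± 0.35, −2.05 ± 0.35 and −1.58 ± 0.35 at 21D (adjusted p = 6.67e-05, 1.38e-05 and 0.000358). Without control replicate 4 it was −2.29 at 7D 0 mg/kg and −1.38 at 21D 0 mg/kg, and all 6 groups still passed the test. Between 21 and 7 days Mgst3 differed by 0.90 ± 0.31 (adjusted p = 0.0822), 0.62 ± 0.33 (0.227) and 1.14 ± 0.37 (0.0426) at 0, 2 and 6 mg/kg. The groups overlapped in the last, and its call was lost without any 1 of 6 tendons, with a log2 fold change of 0.81 without 21D 6 mg/kg replicate 2. The call at 0 mg/kg, conversely, was made without 21D 0 mg/kg replicate 2 (1.09, adjusted p = 0.0206).

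The level of Mgst3 followed the skeletal muscle share at 21 days. Over the 15 tendons at 21D, r was 0.91 and rho 0.94 on the log2 scales, both with a permutation p of 1e-05, the smallest that the permutations could give (adjusted over 27 relations 0.00027), and r was 0.93 without the 2 tendons farthest from the median share. At 7 days the level stayed between 14.3 and 22.6 CPM while the share ranged from 0.0206 to 1.36%. With the log2 muscle share in the fit, Mgst3 was still lower than control at 7D 0 mg/kg (−1.22, adjusted p = 0.00288) and at 21D 0, 2 and 6 mg/kg (−0.95, −1.11 and −0.82), but not at 7D 2 mg/kg (0.05, adjusted p = 0.950) or 7D 6 mg/kg (−0.03, 0.971). Between 21 and 7 days the sign turned in that fit at 2 mg/kg (−1.16, adjusted p = 0.0277) and 6 mg/kg (−0.78, 0.282). With the share entered in percent rather than on a log scale, a setting chosen after seeing the data, the sign turned in all 6 groups, to values between 1.01 and 1.41 that did not pass the test (adjusted p = 0.0512 to 0.179). At 7D the level did not follow the share, as the 7D 0 mg/kg tendon with the highest share, 1.36%, had the lowest level of its group, 15.8 CPM. The log2 fit thus extends a relation that rests on the 21D tendons across a range of shares that no tendon filled. The fit in percent crosses the same range and draws on the controls as well. Control replicate 4 had both the highest share (28.7%) and the highest level (181 CPM), and the percent fit was not run without it. Because the muscle shares of control and repaired tendons did not overlap, lower Mgst3 after repair cannot be told apart from the lower muscle share.

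**Figure D3:**
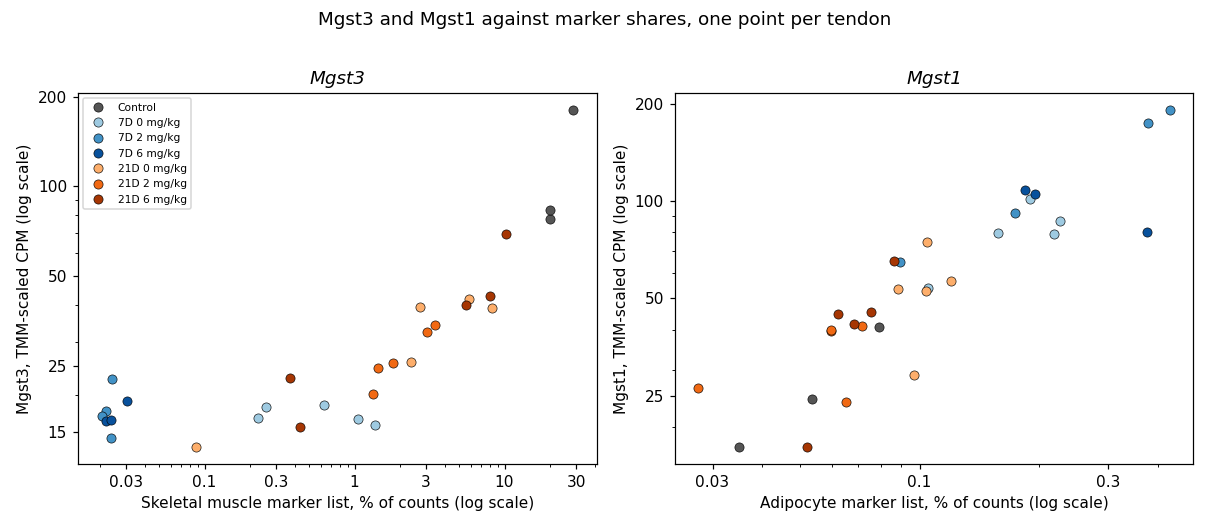
Left, Mgst3 level (y axis, TMM-scaled CPM, log scale) against the percentage of counts on the skeletal muscle marker list (x axis, log scale). Right, Mgst1 level against the percentage on the adipocyte marker list. Each point is 1 tendon, coloured by group. Mgst3 rises with the muscle share among 21D tendons, and the 3 control tendons lie apart at the highest muscle shares.

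Gstk1 encodes the kappa-class enzyme of mitochondria and peroxisomes. It was 18.0, 19.8 and 43.3 CPM in control tendons, the last again in replicate 4. At 7 days it was 11.4 to 13.6 CPM with 0 mg/kg, 12 to 16.8 CPM with 2 mg/kg and 14.9 to 16.2 CPM with 6 mg/kg, and at 21 days 9.94 to 16.5, 11.4 to 13.5 and 11.1 to 16.2 CPM. No repaired tendon reached the lowest control. The log2 fold change was −1.13 ± 0.20, −0.92 ± 0.21 and −0.78 ± 0.22 at 7D (adjusted p = 1.60e-05, 0.000401 and 0.00343) and −1.002 ± 0.20, −1.11 ± 0.20 and −0.94 ± 0.20 at 21D (adjusted p = 9.54e-05, 2.40e-05 and 0.000199). Without control replicate 4 these fell in size to −0.68, −0.46 and −0.31 at 7D and −0.54, −0.66 and −0.48 at 21D, and 7D 6 mg/kg no longer passed the test (adjusted p = 0.120). With the log2 muscle share in the fit the call held at 7D 0 mg/kg (−0.79, adjusted p = 0.0172) and at all 3 doses at 21D but not at 7D 2 mg/kg (−0.30, 0.651) or 7D 6 mg/kg (−0.17, 0.803). Library size alone ended the same 2 calls (−0.29 and −0.13, adjusted p = 0.122 and 0.527), both shares did too (−0.42 and −0.30), and only the groups compared ended that at 7D 6 mg/kg (−0.82, 0.0935). With the share in percent the sign turned in all 6 groups, without passing the test. That fit also drew on control replicate 4, which had the highest share and level, and was not run without it. Gstk1 showed no relation to the log2 muscle share that passed a permutation test over the 15 tendons at 21D. There r was 0.51 and rho 0.41 (permutation p = 0.0505 and 0.134, adjusted 0.175 and 0.443), and r was 0.62 without the 2 tendons farthest from the median share. Over the 27 repaired tendons r was −0.11. Since control and repaired tendons did not overlap in the muscle share, the change of Gstk1 against control cannot be told apart from it.

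Among the soluble enzymes, Gstt1, the theta-class enzyme known for acting on small halogenated molecules, rose in all 6 groups. Control tendons held 3.44, 3.68 and 6.90 CPM. The level was 6.83, 8.03, 8.69, 9.48 and 10.3 CPM at 7D 0 mg/kg, 8.22, 8.75, 11.2 and 13.8 CPM at 7D 2 mg/kg and 7.66, 11.3 and 11.6 CPM at 7D 6 mg/kg. One 7D 0 mg/kg tendon lay just below the highest control, and no tendon of the other 7D groups overlapped with the controls. At 21 days the ranges were 5.98 to 12.97, 8.20 to 11.3 and 8.40 to 11.2 CPM with 0, 2 and 6 mg/kg, of which only the first overlapped. The log2 fold change was 0.88 ± 0.24, 1.15 ± 0.25 and 1.11 ± 0.26 at 7D (adjusted p = 0.00205, 0.000251 and 0.000627) and 1.03 ± 0.24, 1.05 ± 0.24 and 1.04 ± 0.24 at 21D (adjusted p = 0.000643, 0.000434 and 0.000604). With the muscle share in percent as a covariate none of the 6 calls held (adjusted p = 0.143 to 0.268), at log2 fold changes of 1.03 to 1.30 that were no smaller than without it. With the adipocyte share those at 7D 0 and 6 mg/kg were lost (0.60 and 0.74, adjusted p = 0.0706 and 0.0708), and with both shares those at 7D 2 and 6 mg/kg (1.496 and 1.44, 0.0580 and 0.0639), while with the adipocyte share at 21D 2 and 6 mg/kg Gstt1 was 1.08 and 0.99 and still called. As control and repaired tendons did not overlap in the muscle share, the rise of Gstt1 against control cannot be told apart from it.

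Gstp1, the pi-class enzyme, was 61.9, 71.1 and 103 CPM in control tendons. It was 103, 119.5, 121 and 133 CPM at 7D 2 mg/kg. All 4 of these tendons were above all 3 controls, and the group passed the test (0.60 ± 0.24, adjusted p = 0.0301), although not without control replicate 2 (adjusted p = 0.190) or 3 (0.0795) or 7D 2 mg/kg replicate 2 (0.0667). It was lost with each of the marker-share covariates as well, and its sign turned with the log2 muscle share (−0.32, adjusted p = 0.644) and with both shares (−0.22, 0.811). The other 5 groups differed from control by 0.36 to 0.49 on the log2 scale and did not pass the test (adjusted p = 0.0643 to 0.214). Without control replicate 4, Gstp1 was also called higher at 7D 0 mg/kg (0.59, adjusted p = 0.0444), 21D 0 mg/kg (0.69, 0.0248) and 21D 2 mg/kg (0.66, 0.0274). Calls were made at 21D 0 mg/kg without replicate 3 or 4 of that group, and at 21D 2 mg/kg without its replicate 1 or 5. These 2 groups were called too without the filter on low counts and with the filter of 10 CPM, and all 5 groups under library size alone.

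Gsto1, the omega-class enzyme, which acts as a thiol transferase, was 62.5, 62.8 and 109 CPM in control tendons, 51.0, 54.0, 54.5, 61.7 and 67.8 CPM at 7D 0 mg/kg and 58.7, 59.0, 61.5, 63.3 and 63.7 CPM at 21D 0 mg/kg. The groups overlapped in both comparisons. The log2 fold changes of −0.43 ± 0.15 (adjusted p = 0.0134) and −0.35 ± 0.15 (0.0463) passed the test, and neither did without control replicate 4, where they were −0.17 (adjusted p = 0.245) and −0.08 (0.610). The call at 21D 0 mg/kg was also lost without any 1 of the 5 tendons of that group (adjusted p = 0.0537 to 0.102) and under 8 of 12 other settings, and that at 7D 0 mg/kg under 3. Conversely, Gsto1 was called lower at 7D 6 mg/kg without control replicate 2 (−0.47, adjusted p = 0.0216) or 3 (−0.41, 0.0487), and at 21D 2 mg/kg without control replicate 2 (−0.41, 0.0282), where it was −0.29 and −0.19 with all tendons. Under scaling by library size alone Gsto1 turned positive at 7D 0 and 21D 0 mg/kg (0.21 and 0.26). In that fit it was called higher at 7D 2 and 7D 6 mg/kg (0.47 and 0.35, adjusted p = 0.00614 and 0.0470). The same fit called it higher at 21D 2 and 21D 6 mg/kg (0.39 in each, adjusted p = 0.0163 and 0.0176), so the direction of Gsto1 depended on the scaling. Gstm1, a mu-class enzyme, was 25.2, 42.2 and 64.6 CPM in control tendons, a range that held all but 1 of the 27 repaired tendons (66.2 CPM at 7D 2 mg/kg). It passed no test with all tendons under the settings given above, but was called higher at 7D 2 mg/kg under library size alone (0.78, adjusted p = 0.00669). It also passed without control replicate 4, where it was lower at 7D 0 mg/kg (−0.51, adjusted p = 0.0181), 7D 6 mg/kg (−0.51, 0.0344), 21D 0 mg/kg (−0.43, 0.0473) and 21D 6 mg/kg (−0.44, 0.0477), and without control replicate 3, where it was higher at 7D 2 mg/kg (0.68, adjusted p = 0.00702). The sign for Gstm1 thus turned on which control tendon was left out and which group was compared. Gsta4, the alpha-class enzyme specialised for the lipid aldehyde 4-hydroxynonenal, was 1.64, 1.98 and 4.82 CPM in control tendons and passed the test against control in no group under the settings given above. Under library size alone it was called at 7D 2 and 7D 6 mg/kg. With the log2 muscle share in the fit it was called higher at 7D 0, 2 and 6 mg/kg (1.30, 2.54 and 2.42, adjusted p = 0.0474, 0.0342 and 0.0419), and with the share in percent at 7D (3.64, 4.07 and 3.96) and at 21D 0 and 6 mg/kg (2.86 and 2.80), over the same unfilled range of muscle shares. It was lower at 21 than at 7 days with 2 mg/kg (1.32 to 2.05 against 2.13 to 5.90 CPM, log2 fold change −1.16 ± 0.39, adjusted p = 0.0479), where the groups did not overlap, and this call was lost under RLE scaling, without the filter on low counts and with limma-trend, with the adipocyte share (−0.31, adjusted p = 0.893) or both shares (−1.61, 0.167), and without any 1 of 7 of the 9 tendons (adjusted p up to 0.159). Its level followed the adipocyte share at 7D (r = 0.92, rho = 0.94, n = 12, permutation p = 0.000160 and 2.00e-05, adjusted 0.00216 and 0.00027, r = 0.90 without the 2 farthest tendons) and the muscle share at 21D (r = 0.70, rho = 0.75, n = 15, permutation p = 0.00403 and 0.00188, adjusted 0.0272 and 0.0127, r = 0.75).

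The study asked whether HPGDS inhibition alters the repaired tendon, and no member passed the test across the doses of GSK2894631A. At 7D, 0 of 9 members passed the test over the 3 doses, against 2.05% of all genes tested. At 21D, 0 of 9 passed, against 0% of all genes, with 1366 genes at an unadjusted p under 0.05. In the dose by time interaction 0 of 9 passed, against 0.39% of all genes. The smallest unadjusted p in these 3 tests was that of Mgst1 in the interaction, given above, and the next was 0.0378 for Gstm1 across doses at 7D (adjusted p = 0.356), where the 2 mg/kg group exceeded the 0 mg/kg group by 0.46 ± 0.19 on the log2 scale with overlap. Mgst1 at 2 mg/kg differed from 0 mg/kg by 0.70 ± 0.33 at 7D (adjusted p = 0.297) and by −0.64 ± 0.31 at 21D (0.581). These SEs leave room for differences of that size, and a p that misses the threshold does not show equal levels. With the log2 muscle share in the fit, 1 member, Mgst3, passed the test across doses at 7D (adjusted p = 0.0127) and in the interaction (0.0348). Without that term the adjusted p at 7D was 0.996 and the levels of the doses overlapped. The muscle shares did not overlap, with all 0 mg/kg tendons at 7D above all 7D tendons of the other doses.
From 7 to 21 days at 0 mg/kg, 0 members rose and 0 fell (2.88 and 2.47% of all genes). At 2 mg/kg 0 rose and 2 fell (7.09 and 5.98%), and at 6 mg/kg 1 rose and 1 fell (8.54 and 4.55%). The members that passed were Mgst1 and Gsta4 at 2 mg/kg and Mgst3 and Mgst1 at 6 mg/kg, with the values given above.

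The drug target shares the glutathione transferase fold, and its transcript was scarce. Hpgds was 0.654, 4.37 and 7.08 CPM in control tendons, the lowest value being 8 counts in replicate 4. At 7D 0 mg/kg it was 0.822, 1.04, 1.77, 1.79 and 2.00 CPM. The groups overlapped only through control replicate 4, and the log2 fold change was −1.46 ± 0.50 (adjusted p = 0.0121), a call lost under 7 of the 11 other settings. These were library size alone, limma-trend, only the groups compared and each of the marker-share covariates. The log2 fold change ran from −2.15 to −0.93 over the 11 settings. Without that control tendon it was −1.999 (adjusted p = 0.000542), and 4 further groups were called lower. At 21D 0 mg/kg the level was 1.32 to 4.45 CPM and the log2 fold change −0.77 ± 0.50 (adjusted p = 0.177). Hpgds did not pass the test across doses at 7D or 21D (adjusted p = 0.622 and 0.818). The share of mast cell markers, a cell type known to express it, was 0.00120 to 0.0137% in control and 0.0112 to 0.0309% in 7D 0 mg/kg tendons, and its part in the level of Hpgds was not tested.

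Ptges, the MAPEG enzyme that makes PGE2, rose in every repaired group. It was 3.76, 7.83 and 9.42 CPM in control tendons and 23.3, 23.8, 27.4, 31.4 and 32.1 CPM at 7D 0 mg/kg. The lowest repaired tendon of any group, at 13.1 CPM, was above the highest control. The log2 fold change was 1.96 ± 0.27, 2.01 and 1.95 at 7D and 1.46, 1.39 and 1.58 at 21D, with adjusted p-values of 7.34e-07 at 7D 0 mg/kg and 4.40e-05 at 21D 0 mg/kg. With the muscle share in percent as a covariate it was 1.04 (adjusted p = 0.285) and 0.66 (0.494) in these groups. Ltc4s, which joins glutathione to LTA4, was 8.99, 12.9 and 27.8 CPM in control tendons, 24.4, 26.6, 31.7 and 54.3 CPM at 7D 2 mg/kg and 17.0, 35.2, 46.7, 53.6 and 55.9 CPM at 21D 2 mg/kg. It passed the test in these 2 groups (1.04 ± 0.44, adjusted p = 0.0397, and 1.33 ± 0.43, 0.00892) with overlap, and in neither without control replicate 4 (adjusted p = 0.206 and 0.0792). The first call was also lost without control replicate 3 (adjusted p = 0.124) or 7D 2 mg/kg replicate 5 (0.153), with only the groups compared (0.0723) and with the log2 muscle share (0.46, 0.753), the adipocyte share (0.67, 0.408), both (0.11, 0.960) or the muscle share in percent (−0.35, 0.863). The second was lost with the log2 muscle share (1.13, 0.0522), both shares (1.08, 0.0680) and the share in percent (0.09, 0.971). Without control replicate 2, Ltc4s was called higher at 21D 0 and 6 mg/kg (1.28 and 1.27, adjusted p = 0.0228 and 0.0253). Alox5ap, the protein that presents arachidonic acid to 5-lipoxygenase, passed the test in no group with all tendons under the settings given above, but at 7D 2 and 6 mg/kg without control replicate 2 (1.24 and 1.07, adjusted p = 0.0120 and 0.0332), with 11.9, 49.3 and 74.1 CPM in control tendons and 35.1 to 76.1 CPM at 7D 0 mg/kg. With all tendons it was called at 7D 2 mg/kg under library size alone and with limma-trend (adjusted p down to 0.00921), and at 7D 6 mg/kg under library size alone (0.0261).

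**Figure D4:**
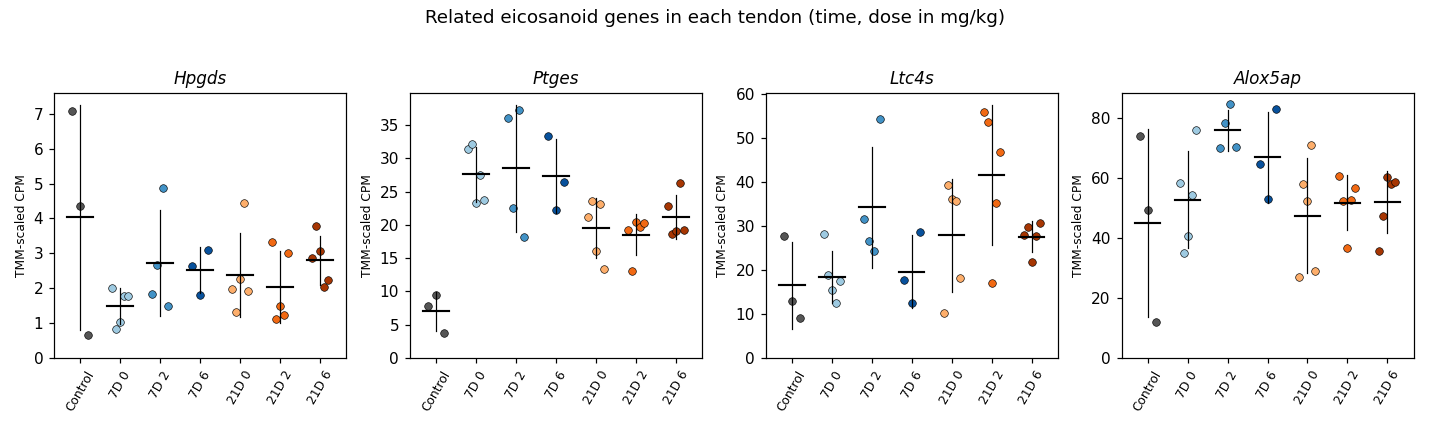
TMM-scaled CPM (y axis) of Hpgds, Ptges, Ltc4s and Alox5ap in every tendon, by group (x axis, time and dose in mg/kg); each point is 1 tendon, horizontal bars are means and vertical bars ± SD. Ptges is above all 3 control tendons in each repaired tendon, while the control values of the other 3 genes are widely spread.

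The remaining genes of glutathione metabolism were counted in 6 lists, each with up to 3 genes named by the size of their change. The shares of all genes to set beside the counts are 35.8% higher and 35.6% lower at 7D 0 mg/kg and 32.2 and 33.7% at 21D 0 mg/kg, and nothing particular to a list is read from the counts. The median log2 fold changes of the lists at 7D 0 and 21D 0 mg/kg, where all genes had 0.05 and 0.03, were −0.54 and −0.17 for the other soluble transferases, 0.22 and 0.75 for the other MAPEG proteins, 0.22 and 0.17 for synthesis and breakdown, −0.14 and −0.23 for peroxidases, reductase and glutaredoxins, 0.11 and −0.01 for NRF2 regulators and targets, and −0.04 and −0.19 for exporters. Of the other soluble transferases, 8 were tested, and 1 was higher and 4 lower at 7D 0 mg/kg and 0 higher and 2 lower at 21D 0 mg/kg. Ptges2, a membrane-associated PGE synthase that was counted here although the list is named for soluble enzymes, differed from control by −2.23 ± 0.24 (adjusted p = 1.51e-08) and −1.81 ± 0.24 (6.14e-07). Gstm7, of the mu class, differed by −1.23 ± 0.18 (1.38e-06) and −0.93 ± 0.18 (7.80e-05). Gstm4 fell by 0.33 at 7D 0 mg/kg (adjusted p = 0.0204) but not without control replicate 4 (adjusted p = 0.225), and it turned positive under library size alone. The call was lost under 6 of 12 other settings, among them the log2 muscle share, the adipocyte share and only the groups compared. The other MAPEG proteins were the 3 eicosanoid genes above, of which Ptges passed the test.

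In glutathione synthesis and breakdown, 6 of 16 genes tested rose and 3 fell at 7D 0 mg/kg (35.8 and 35.6% of all genes), and 5 rose and 4 fell at 21D 0 mg/kg (32.2 and 33.7%). Slc7a11, the cystine importer that supplies cysteine for glutathione, rose from 1.85 CPM in control tendons to means of 51.8 and 80.02 CPM (log2 fold change 4.75 ± 1.25 and 5.37 ± 1.28, adjusted p = 0.00157 and 0.000782). The first of these calls was lost with the log2 muscle share (3.12, adjusted p = 0.0571) and with both shares (3.66, 0.0784), and in percent the share left 1.25 and 2.54. Chac1, which degrades cytosolic glutathione, fell from 48.4 to 2.81 and 4.16 CPM (−4.10 ± 0.47 and −3.54 ± 0.46, adjusted p = 3.37e-08 and 4.45e-07). Anpep, an aminopeptidase that cleaves the cysteinylglycine released from glutathione, rose by 2.46 ± 0.38 and 2.09 ± 0.37 (3.54e-06 and 3.39e-05). The 2 subunits of glutamate-cysteine ligase, the first and rate-limiting step of synthesis, were looked at for their role and with their values known. Gclc differed by 0.28 ± 0.23 (adjusted p = 0.268) and 0.48 ± 0.23 (0.0703), and Gclm by −0.35 ± 0.13 (0.0221) and −0.18 ± 0.13 (0.245). The Gclm call was lost without control replicate 4 (adjusted p = 0.0657) or 7D 0 mg/kg replicate 3 (0.0623) or 4 (0.0518), and under 6 of 12 other settings.

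The list of glutathione peroxidases, the reductase and glutaredoxins had 11 genes tested, of which 3 rose and 5 fell at 7D 0 mg/kg (35.8 and 35.6% of all genes) and 4 rose and 5 fell at 21D 0 mg/kg (32.2 and 33.7%). Gpx8 and Gpx7, peroxidases of the endoplasmic reticulum, rose by 1.38 ± 0.18 and 1.31 ± 0.15 at 7D 0 mg/kg (adjusted p = 3.63e-07 and 3.27e-08). Gpx4, which reduces lipid hydroperoxides in membranes, differed by −1.18 ± 0.21 at 7D 0 mg/kg (3.03e-05) and by −0.83 ± 0.21 at 21D 0 mg/kg (0.00164), the latter call being lost without control replicate 4 (−0.49, adjusted p = 0.0517). The call at 21D 0 mg/kg was also lost under library size alone, with the log2 muscle share and with both shares. That at 7D 0 mg/kg was lost with both shares. Of 14 NRF2 regulators and target genes, NRF2 being the transcription factor that induces many detoxification genes, 4 rose and 6 fell at 7D 0 mg/kg, and 4 rose and 5 fell at 21D 0 mg/kg, against the same shares of all genes. Hmox1, heme oxygenase, rose from 19.1 to 242 and 92.0 CPM (3.65 ± 0.46 and 2.26 ± 0.43, adjusted p = 1.91e-07 and 7.18e-05) and Tkt, the transketolase of the pentose phosphate pathway, by 1.79 ± 0.28 (4.92e-06) and 1.49 ± 0.28 (5.90e-05). Me1, the cytosolic malic enzyme and a source of NADPH, fell from 409.5 to 72.9 and 90.2 CPM (−2.49 ± 0.32 and −2.18 ± 0.32, adjusted p = 2.01e-07 and 2.16e-06). Nfe2l2, which encodes NRF2, differed by −0.02 ± 0.13 and 0.00 ± 0.13 (adjusted p = 0.877 and 0.985), and Keap1, its inhibitor, by −1.04 ± 0.11 and −0.79 ± 0.11 (7.54e-09 and 8.27e-07), or −0.06 and 0.04 (adjusted p = 0.847 and 0.895) with the muscle share in percent, both looked at for their role with their values known. Nfe2l2 was called at 7D 0 mg/kg under library size alone and with the log2 muscle share, and its values there ran from −0.50 to 0.58 over the other settings. At 21D 0 mg/kg it was called under library size alone (0.57, adjusted p = 0.00109). Of 4 exporters of glutathione conjugates, 1 was higher and 1 lower in both groups. Abcc1 differed by −1.65 ± 0.22 at 7D 0 mg/kg (3.29e-07) and Abcc3 by 1.23 ± 0.27 (0.000231). The Abcc3 call was lost with the log2 muscle share and with both shares, as was its call at 21D 0 mg/kg (1.06, adjusted p = 0.00118). In the fit with the muscle share in percent, Abcc1 still passed the test at 7D 0 mg/kg (−2.02, adjusted p = 0.0303) and Gclc (−1.47, 0.0394) and Alox5ap (−2.41, 0.0480) were called lower there, which they were not without it. Gclc was called higher in the same group under library size alone (0.85, adjusted p = 0.00462). No other list gene named here passed in the fit with the percent share in either 0 mg/kg group, and Ptges2, Chac1, Gpx4 and Me1 turned positive and Abcc3 negative in both. Beside those of Slc7a11 and Ptges given above, the lost rises differed in size in that fit, from 0.14 for Tkt and 0.26 for Anpep to 0.78 for Gpx8, 0.82 for Gpx7 and 1.11 for Hmox1 at 7D 0 mg/kg, and from 0.03 for Hmox1 and 0.07 for Tkt to 0.79 for Gpx7 at 21D 0 mg/kg. As for Mgst3, the differences of Ptges2, Chac1, Gpx4, Me1 and Keap1 from control cannot be told apart from the muscle share. The same holds for the rises of Ptges, Slc7a11, Anpep, Gpx8, Gpx7, Hmox1, Tkt and Abcc3 and for the falls of Gstm7 and Abcc1. Control and repaired tendons did not overlap in that share. Abcc1 was called lower at 7D 0 mg/kg under all 12 other settings, and it was −1.64 with the log2 muscle share. Its call at 21D 0 mg/kg (−1.31, adjusted p = 1.33e-05) was lost with the muscle share in percent (adjusted p = 0.0611).

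**Figure D5:**
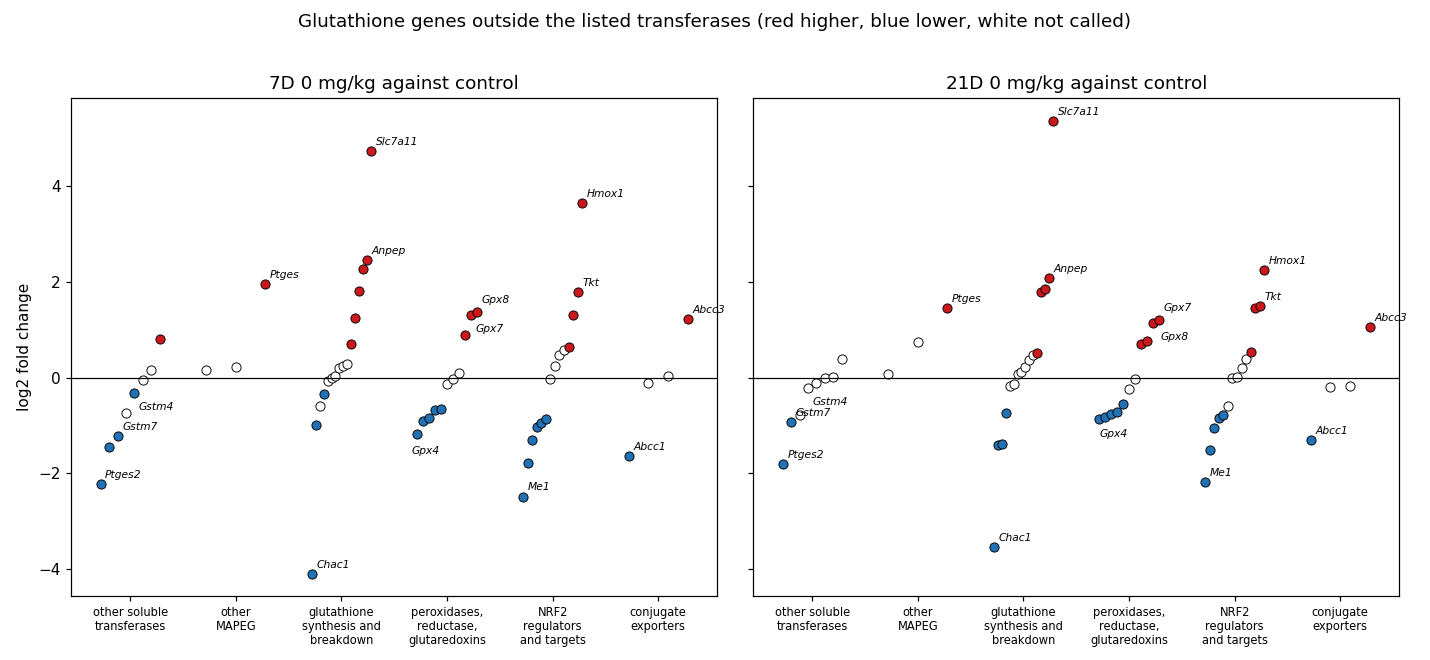
Log2 fold change (y axis) of the tested genes in 6 glutathione gene lists (x axis) in 7D 0 mg/kg tendons (left) and 21D 0 mg/kg tendons (right) against control tendons; each point is 1 gene, coloured when the adjusted p was under 0.05 and white otherwise. Slc7a11 is the highest point in both panels and Chac1 the lowest.

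For each member the genes whose log2 CPM followed it most closely were found by Pearson's r among the 9531 genes that averaged 10 CPM or more. This describes likeness across tendons that share injury, time and tissue makeup. Over the 27 repaired tendons, Mgst3 was most like Slc25a4, Cox5b and Coq8a (r = 0.94 for each), which encode a mitochondrial ADP/ATP carrier, a subunit of cytochrome c oxidase and a coenzyme Q kinase. Mgst1 was most like Cdo1 (r = 0.91), Agt (0.91) and Rbp4 (0.91). Gsta4 was most like Abcd2 (r = 0.87), Tspan12 (0.86) and Acsl1 (0.84). Mgst2 was most like Tmem192 (r = 0.79), Smn1 (0.78) and Ggh (0.75), and over all 30 tendons most like Dnm3, Cthrc1 and Ccdc125 (r = 0.94, 0.93 and 0.93). Gstk1 was most like Msrb1 (r = 0.77), Qdpr (0.73) and Glrx2 (0.72), and Gstt1 most like its theta-class neighbour Gstt3 (0.77), Cars2 (0.68) and Mif4gd (0.68). Gstp1 was most like Tcirg1, Gngt2 and Dok3 (r = 0.82, 0.82 and 0.81), Gsto1 most like Rpl10, Cyb5a and S100a4 (0.87, 0.84 and 0.84) and Gstm1 most like Myl12b, Mapk3 and Ntn1 (0.77, 0.77 and 0.75).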

How the data were processed

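The authors deposited raw read counts per gene: single-end reads were trimmed with fastp and aligned by STAR to rn6, exonic reads were counted against Ensembl genes, and samples were removed on quality. The labels give 3 tendons at 7D 6 mg/kg, where the removals stated in the methods would leave 4, and the labels were followed. Whether counting used strand is not given in the sources used here. Of a second table, holding the authors' comparisons, only gene identifiers, chromosomes and widths were used.

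The analysis used edgeR 4.0.16 under R 4.3.3. Time and dose, from the labels, defined 7 groups. Genes under 3 CPM on average in every group were left out (566), TMM scaled the libraries, and one quasi-likelihood model with group means as its only terms covered the 30 tendons. Each comparison was a contrast of it, adjusted by Benjamini-Hochberg, and the SE is the log2 fold change over the square root of F. Log2 CPM used a prior count of 2. Permutation tests were two-sided (100000 resamples) and shuffled all tendons of a time point, whatever their dose. Steps were tested on simulated data. No pair of libraries looked like a duplicate (smallest chi-square per gene within a group 29.6). Floors of 3 counts cover counting error only.

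The members, lists and markers were chosen with earlier results of these data known. Some list genes are not reported here and were left out of the counts. Named were the members, 4 eicosanoid genes, per list up to 3 changed genes of at least 10 CPM with the largest change at 7D 0 mg/kg, and per member the 3 genes most like it. Alternatives were RLE, library size only, no filter or one of 10 CPM, DESeq2 1.42.0, limma-trend (limma 3.58.1), fits restricted to the compared groups, a replicate block, the log2 muscle share as a covariate, a prior count of 0.25, and leaving out each tendon. Covariates for the log2 adipocyte share, for both shares and for the muscle share in percent were chosen after seeing the data.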

Additional observations from a re-analysis of the deposited data

Results flagged for a closer look

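Ptges in replicate 2 of the 21D 2 mg/kg group was 13.1 CPM, where the other 4 tendons of that group were 19.2 to 20.4 CPM. The gap was 0.839 of the group's range, which marks it as far from the others. Such gaps were looked for in 65 groups of 13 genes, where chance marks about 1 in 20 groups, and this was the only one found. The group's log2 fold change against control rests on all 5 tendons.

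The dose by time interaction of Dpep1, a dipeptidase that cleaves the cysteinylglycine formed from glutathione, had an adjusted p of 0.0490 by edgeR's quasi-likelihood test, and it was named after its values were seen. Dpep1 averaged 4.78 ± 1.26, 12.8 ± 4.15 and 6.62 ± 4.66 CPM (SD) at 7D 0, 2 and 6 mg/kg, and 2.74 ± 1.27, 1.03 ± 0.262 and 1.84 ± 0.575 CPM at 21D. The 2 mg/kg group thus had the highest mean of the doses at 7 days and the lowest at 21 days.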

How the results depend on the processing

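Of the fitted log2 fold changes of the 9 members against control and between time points, leaving out 1 tendon turned no called sign, with 600 values on the same side of the threshold, 30 that lost a call and 18 that gained one. Under the other settings 848 kept their side, 65 lost a call, 28 gained one and 19 called values changed sign. The cause of these changes was not tested. Replicate numbers did not pair the tendons: over 76 pairs with the same number the correlation of their deviations ran from −0.70 to 0.68, and 6 of 30 tendons correlated best with their own number. With a replicate block 1 call was lost, Gsto1 at 21D 0 mg/kg (−0.34, adjusted p = 0.0597).

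Library size only shifted the median log2 fold change of all genes against control to 0.64, 0.61, 0.63, 0.59, 0.54 and 0.51 at 7D 0, 2 and 6 and 21D 0, 2 and 6 mg/kg, with 7474 genes higher and 2418 lower at 7D 0 mg/kg against 4493 and 4473 with TMM. Under it members were 7 higher and 1 lower at 7D 2 mg/kg (7201 and 2368 of all genes), 6 higher and 1 lower at 7D 6 mg/kg (7173 and 2342), 4 higher at 21D 2 mg/kg (6934) and 5 higher at 21D 6 mg/kg (6763), and Gsto1 (0.21 at 7D 0 and 0.26 at 21D 0 mg/kg), and Gstm4 (0.30) and Gclm (0.26) at 7D 0 mg/kg, turned positive.

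With the log2 muscle share in the fit, 0 members were lower at 7D 2 and 7D 6 mg/kg (1055 and 1126 of the 12558 genes), 0 were higher or lower between time points at 6 mg/kg (110 and 116 genes), 1 was called across doses at 7D and 1 in the interaction, and Gstp1 (−0.32) and Mgst3 (0.055) at 7D 2 mg/kg and Mgst3 between time points at 6 mg/kg (−0.78) changed sign. With the adipocyte share, members higher were 1, 2 and 1 at 7D 0, 2 and 6 mg/kg (3705, 3360 and 3225 of all genes), 0 were lower between time points at 2 mg/kg (15 of all genes lower and 38 higher), and 0 were higher or lower at 6 mg/kg (141 and 37 of all genes). With both shares, 1 was higher and 0 lower at 7D 2 mg/kg (489 and 568 genes) and at 7D 6 mg/kg (570 and 650), 0 were lower between time points at 2 mg/kg (181 genes), 0 were higher or lower at 6 mg/kg (16 and 17), 1 was called across doses at 7D, and Gstp1 at 7D 2 mg/kg (−0.22) and Mgst3 between time points at 6 mg/kg (−0.71) changed sign.

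With the muscle share in percent, 0 members were lower than control in any of the 6 groups, 1 was higher at 7D 2 and at 7D 6 mg/kg, 0 were higher at 21D 2 mg/kg, and 0 were higher between time points at 6 mg/kg. Mgst3 turned to 1.01, 1.17 and 1.12 at 7D 0, 2 and 6 mg/kg and 1.33, 1.41 and 1.30 at 21D, and Gstk1 to 0.31, 0.57 and 0.70 at 7D and 0.24, 0.25 and 0.25 at 21D. Ltc4s at 7D 2 mg/kg turned to −0.35. At 7D 0 mg/kg Ptges2 (0.52), Gstm4 (0.36), Chac1 (0.28), Gpx4 (0.56), Me1 (0.78) and Abcc3 (−0.70) changed sign, and at 21D 0 mg/kg Ptges2 (0.52), Chac1 (0.072), Gpx4 (0.66), Me1 (0.50), Abcc3 (−0.62) and Keap1 (0.044). In this fit 315 genes of all tested were higher and 504 lower at 7D 0 mg/kg, 158 and 317 at 7D 2, 141 and 231 at 7D 6, 196 and 218 at 21D 0, 187 and 227 at 21D 2 and 330 and 358 at 21D 6 mg/kg.

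DESeq2 called 1 member higher between time points at 0 mg/kg. Between time points at 2 mg/kg 1 member was lower under RLE, no filter, the filter of 10 CPM (which removed Gsta4) and limma-trend. At 6 mg/kg 0 members were higher under limma-trend, and 0 were higher or lower with only the groups compared, a fit under which 1 was lower at 7D 6 mg/kg. Leaving out 1 tendon gave 3 to 4 members higher and 3 to 3 lower at 7D 0 mg/kg, 3 to 4 and 2 to 2 at 7D 2 mg/kg, 3 to 3 and 2 to 3 at 7D 6 mg/kg, 2 to 4 and 2 to 3 at 21D 0 mg/kg, and 2 to 3 and 2 to 3 at 21D 2 and at 21D 6 mg/kg. Between time points it gave 0 to 1 higher and 0 to 0 lower at 0 mg/kg, 0 to 0 and 1 to 2 at 2 mg/kg, and 0 to 1 and 0 to 1 at 6 mg/kg, and 0 members were called across doses or in the interaction. With 3 control tendons the comparisons against control rest on few samples, and counts of Gsta4 and Hpgds were low.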
